A study of Mus musculus with 6 samples.

Results

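Expression of the 9 genes that encode the subunits of cohesin was followed in fetal mouse ovaries, Ctrl and cKO, taken at 16.5 dpc. The genes were chosen by function from the 54532 genes of the deposited expression table. *Rec8*, *Rad21l*, *Stag3* and *Smc1b* encode the 4 meiosis-specific subunits, and *Rad21*, *Stag1*, *Stag2*, *Smc1a* and *Smc3* the 5 general ones. All 9 lay above the minimum of a mean FPKM of 0.5 and were among the 17180 genes tested. FPKM divides the reads on a gene by its length and by the size of the library, so that levels can be set side by side between genes. Total RNA came from whole ovaries of C57BL/6 mice, with 3 Ctrl libraries, labelled wild type, and 3 cKO libraries. In cKO mice, floxed *Srsf1* is removed by *Stra8-GFPCre*, a Cre line that acts in germ cells once they begin meiosis, while the somatic cells of the ovary keep the gene. *Srsf1* encodes a splicing factor of the SR family, and the study asked what its loss does in fetal oocytes. The study's methods describe the libraries of each genotype as biological replicates, so p-values reflect the spread between these libraries.

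Cohesin is a ring that holds sister chromatids together from replication until they part. An SMC1 and an SMC3 protein form most of the ring, a kleisin closes it, and a STAG protein sits on the kleisin. Germ cells entering meiosis make variants of these parts: the kleisins REC8 and RAD21L beside RAD21, SMC1B beside SMC1A, and STAG3 beside STAG1 or STAG2, while SMC3 is used throughout. In fetal oocytes, rings with these subunits form much of the chromosome axis along which homologues synapse, and REC8 cohesin keeps chromatids together during the long arrest that follows.

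The promoters of the meiosis-specific subunits are printed because the levels of these genes are compared below, and because the windows differ in their bases. Each window runs from 250 bases before to 50 bases after the RefSeq start of the gene on GRCm38.p6, read 5′ to 3′ on the strand of the gene. It covers chr14:55617916-55618215 on the plus strand for *Rec8*, chr2:151668484-151668783 on the minus strand for *Rad21l*, chr5:138280259-138280558 on the plus strand for *Stag3* and chr15:85131908-85132207 on the minus strand for *Smc1b*. Capitals mark the motifs found among those searched, an E-box (CACGTG) and an E2F motif (GCGGGAA, or TTCCCGC on the other strand).
Rec8: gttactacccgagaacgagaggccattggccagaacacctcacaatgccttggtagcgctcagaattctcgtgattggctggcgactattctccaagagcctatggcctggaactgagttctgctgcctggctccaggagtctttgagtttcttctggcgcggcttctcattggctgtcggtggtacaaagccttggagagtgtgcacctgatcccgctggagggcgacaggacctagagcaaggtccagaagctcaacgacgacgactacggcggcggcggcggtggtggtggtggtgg
Rad21l: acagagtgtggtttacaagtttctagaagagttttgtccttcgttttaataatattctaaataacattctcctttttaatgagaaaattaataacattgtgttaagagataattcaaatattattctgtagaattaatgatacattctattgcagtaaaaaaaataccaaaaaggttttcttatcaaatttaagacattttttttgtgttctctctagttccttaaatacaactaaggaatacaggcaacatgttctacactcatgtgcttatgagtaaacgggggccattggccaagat
Stag3: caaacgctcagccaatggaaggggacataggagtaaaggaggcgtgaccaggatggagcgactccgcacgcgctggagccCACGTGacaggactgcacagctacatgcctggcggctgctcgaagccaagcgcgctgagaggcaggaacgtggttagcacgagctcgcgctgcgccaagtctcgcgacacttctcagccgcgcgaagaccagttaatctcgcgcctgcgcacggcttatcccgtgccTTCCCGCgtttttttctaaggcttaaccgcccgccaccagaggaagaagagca
Smc1b: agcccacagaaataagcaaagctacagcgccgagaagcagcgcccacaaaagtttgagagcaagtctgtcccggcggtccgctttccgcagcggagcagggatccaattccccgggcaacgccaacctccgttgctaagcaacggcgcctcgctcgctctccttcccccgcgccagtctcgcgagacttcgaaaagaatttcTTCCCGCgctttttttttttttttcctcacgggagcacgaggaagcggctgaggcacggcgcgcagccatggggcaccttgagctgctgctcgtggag
*Stag3* held 1 E-box, at positions 81 to 86 of the window, and 1 E2F motif, at positions 248 to 254. *Smc1b* held 1 E2F motif, at positions 203 to 209, and neither motif was found in the windows of *Rec8* and *Rad21l*. CpG dinucleotides numbered 30 in *Stag3*, 29 in *Smc1b*, 18 in *Rec8* and 2 in *Rad21l*, beside a median of 7 over all 32851 RefSeq promoter windows. Of all these windows, 14.1% had fewer CpG than that of *Rad21l* and 88.3% fewer than that of *Stag3*. Windows were at hand for 7 of the 9 genes. Those of the general genes *Stag1* and *Smc1a* also held 1 E2F motif each, and that of *Smc3* held none. RefSeq starts can differ from the gene starts of the expression table given below. The windows of *Stag3* and of *Stag1* (chr9:100643198-100643497) lie wholly within the genes as given there. Over all windows and both strands, the E-box occurred in 7.15% and the E2F motif in 4.6%. The motif bound by STRA8 and MEIOSIN (CNCCTCAG, in 7.94% of windows) and the cAMP response element (TGACGTCA, in 1.79%) were in none of the 7 windows, and no motif found here overlapped another. A match is a run of letters and says nothing of binding, nor does the lack of one.

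Reads on genes numbered between 14212164 and 16784241 per library. *Srsf1* was at 63.1 to 80.2 FPKM in the Ctrl libraries, against 32.4 to 37.0 in the cKO ones, a difference of -0.99 on the log2 scale (standard error 0.13), counted over all its exons, the deleted ones included. The extraction text of the labels names retina, whereas the tissue field and the study name ovary. The 6 retina markers summed to between 0.119 and 0.565 FPKM, and the 4 Y-chromosome genes listed were at 0 in every library, whereas the 10 markers of pregranulosa cells, the somatic partners of the oocytes, summed to between 515 and 796 FPKM. Libraries differed in their germ-cell RNA within each group. The sum of 8 germ-cell genes ran from 65.0 to 246 FPKM in Ctrl, lowest in Ctrl 1, and from 122 to 383 FPKM in cKO, lowest in cKO 2. Much of the cKO sum came from 1 gene, *Dazl*, which alone was at 23.0 to 80.0 FPKM in Ctrl and 56.8 to 219 in cKO. In whole ovaries, fewer germ cells and less RNA per germ cell cannot be told apart.

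*Smc1b*, the SMC1 variant of meiosis (ENSMUSG00000022432; chromosome 15, 85064689 to 85131964, minus strand), was the cohesin gene with the highest mean level in both groups. Ctrl libraries 1, 2 and 3 held 36.1, 74.2 and 112.6 FPKM of its transcripts, against 170.9, 56.1 and 126.9 for cKO libraries 1, 2 and 3. The groups overlapped: cKO 2 lay below Ctrl 2 and Ctrl 3, and cKO 1 and cKO 3 lay above every Ctrl library. Group means were 74.3 ± 38.3 FPKM (Ctrl) and 118 ± 57.9 (cKO; SD, n = 3 each), and the log2 fold change of FPKM + 1 was 0.66 (standard error 0.52; adjusted p = 0.978 in limma). Its read counts per library ran from 2188 to 10694, so the spread between libraries exceeded the counting error by far.

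*Stag3* encodes the STAG subunit of meiotic cohesin (ENSMUSG00000036928; chromosome 5, 138280240 to 138312393, plus strand). Ctrl libraries 1, 2 and 3 held 16.6, 32.3 and 54.6 FPKM of its transcripts, against 67.4, 23.9 and 56.3 for cKO libraries 1, 2 and 3, so the libraries stood in the same order as for *Smc1b*. Group means were 34.5 ± 19.1 FPKM (Ctrl) and 49.2 ± 22.6 (cKO; SD, n = 3 each), with a log2 fold change of 0.53 (cKO minus Ctrl) and an SE of 0.51 (adjusted p = 0.978 in limma). Its difference did not exceed the spread between libraries either.

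*Rad21l*, which encodes a kleisin of early meiotic prophase (ENSMUSG00000074704, listed under this symbol; chromosome 2, 151645404 to 151668533, minus strand), had the largest difference of the 9 genes. Ctrl libraries 1, 2 and 3 held 8.08, 12.5 and 25.5 FPKM of its transcripts, against 59.4, 14.9 and 50.6 for cKO libraries 1, 2 and 3. The cKO 1 and cKO 3 libraries lay above every Ctrl library, but cKO 2 lay below Ctrl 3, so the groups overlapped. Group means were 15.4 ± 9.05 FPKM (Ctrl) and 41.6 ± 23.6 (cKO; SD, n = 3 each), 2.71-fold higher. On the log2 scale the difference was 1.31 with a standard error of 0.59 (adjusted p = 0.978 in limma; exact permutation test, two-sided, p = 0.2, where 0.1 is the smallest p that 3 libraries against 3 allow). *Rad21l* rested on fewer reads than the other cohesin genes in its lowest library, 201 in Ctrl 1, and on 1524 in its highest.

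*Rec8* encodes the kleisin of lasting meiotic cohesion (ENSMUSG00000002324; chromosome 14, 55618037 to 55625395, plus strand). Ctrl libraries 1, 2 and 3 held 50.7, 17.4 and 20.8 FPKM of its transcripts, against 12.4, 47.5 and 17.0 for cKO libraries 1, 2 and 3. Ctrl 1 and cKO 2, the lowest libraries of their groups for the other meiosis-specific subunits, were its highest, and cKO 1, the highest for those subunits, was its lowest. Group means were 29.6 ± 18.3 FPKM (Ctrl) and 25.6 ± 19.1 (cKO; SD, n = 3 each). The log2 fold change of -0.27 was smaller than its standard error of 0.56 (adjusted p = 0.986 in limma).

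**Figure D1:**
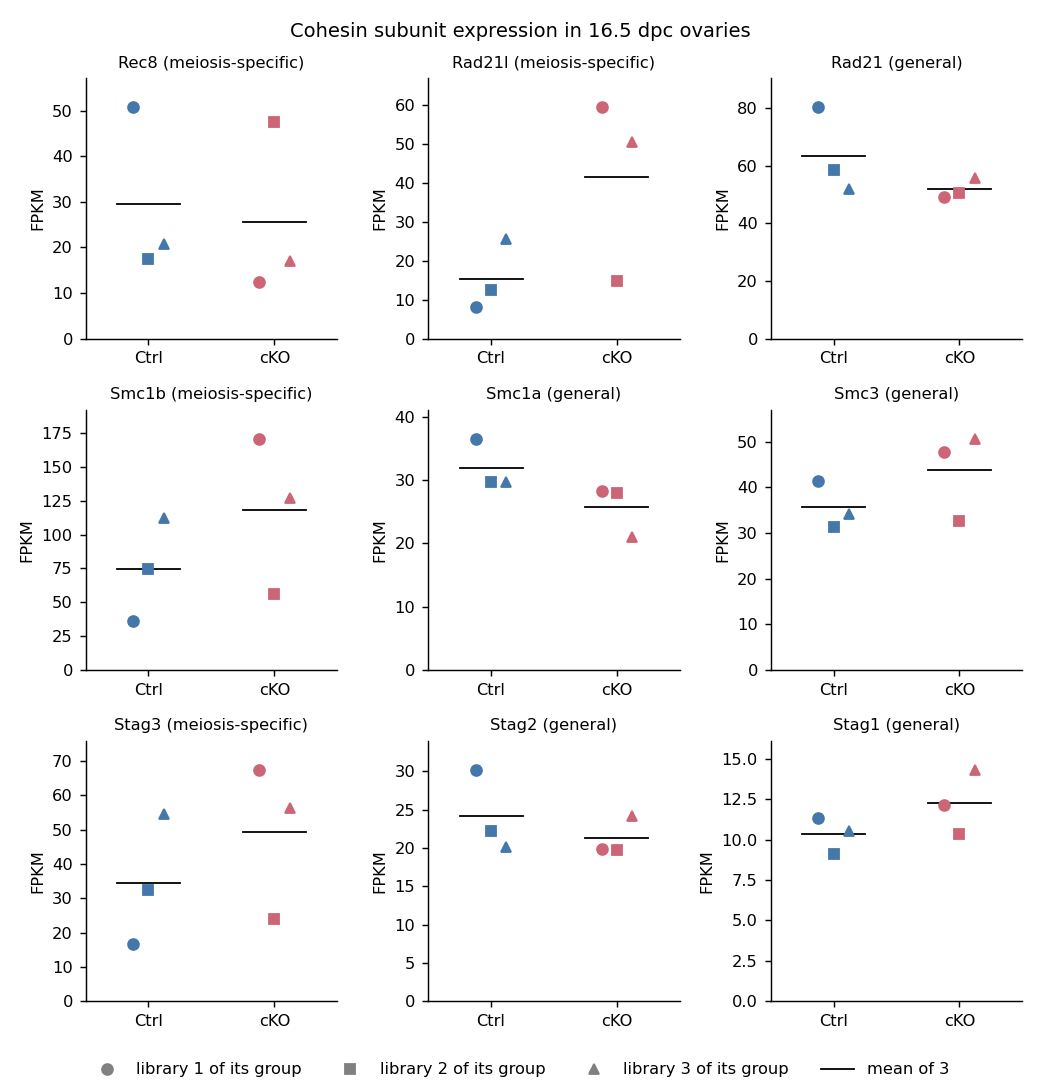
FPKM of the 9 cohesin subunits in each of the 3 Ctrl (blue) and 3 cKO (red) libraries, each panel from 0 on its own scale, with a line at the mean of each group. *Smc1b*, *Stag3* and *Rad21l* were lowest in Ctrl 1 and, within cKO, in cKO 2, the libraries with the most *Rec8*, and *Smc1a* alone had no overlap between groups.

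The general subunits varied less between libraries. From the lowest to the highest library their levels spanned between 1.53-fold (*Stag2*) and 1.75-fold (*Smc1a*), compared with 4.07-fold to 7.35-fold for the meiosis-specific ones. *Rad21*, the kleisin of dividing cells (ENSMUSG00000022314; chromosome 15, 51962240 to 51991747, minus strand), had values of 80.2, 58.3 and 51.7 FPKM for Ctrl libraries 1, 2 and 3, against 49.2, 50.5 and 55.7 for cKO libraries 1, 2 and 3. Ctrl 1 stood above the other libraries, and cKO 3 lay between Ctrl 2 and Ctrl 3. Group means were 63.4 ± 14.9 FPKM (Ctrl) and 51.8 ± 3.43 (cKO; SD, n = 3 each), with a log2 fold change of -0.26 (cKO minus Ctrl) and an SE of 0.18.

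*Smc1a*, which encodes the general SMC1 subunit (ENSMUSG00000041133; chromosome X, 152016428 to 152062694, plus strand), had values of 36.5, 29.7 and 29.6 FPKM for Ctrl libraries 1, 2 and 3, against 28.2, 27.9 and 20.9 for cKO libraries 1, 2 and 3. It was the 1 gene of the 9 whose groups did not overlap, while 8.68% of all genes tested had no overlap, a share close to 1 in 9. The margin between the lowest Ctrl and the highest cKO library was small, and group means were 31.9 ± 3.97 FPKM (Ctrl) and 25.7 ± 4.13 (cKO; SD, n = 3 each). The log2 fold change was -0.31 with a standard error of 0.16 (adjusted p = 0.978 in limma; exact permutation test, two-sided, p = 0.1). *Stag2*, which encodes a general STAG subunit, also lies on chromosome X (ENSMUSG00000025862; 42149317 to 42277185, plus strand). The level of *Stag2* was 30.2, 22.3 and 20.1 FPKM for Ctrl libraries 1, 2 and 3, against 19.8, 19.8 and 24.2 for their cKO counterparts, so that Ctrl 1 was highest and cKO 3 lay above Ctrl 2 and Ctrl 3 (log2 fold change -0.16, standard error 0.18). Of the exons of the 9 genes, those of *Stag2* alone overlapped another gene, *Gm37564* on the other strand, over 28 bases or 0.338% of its exon length in the GENCODE M21 annotation.

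*Smc3*, the subunit that every cohesin ring holds (ENSMUSG00000024974; chromosome 19, 53600398 to 53645833, plus strand), had values of 41.4, 31.3 and 34.2 FPKM for Ctrl libraries 1, 2 and 3, against 47.8, 32.6 and 50.7 for cKO libraries 1, 2 and 3. As with *Rad21l*, cKO 1 and cKO 3 were its highest libraries, and cKO 2 lay within the Ctrl range (log2 fold change 0.27, standard error 0.20). *Stag1*, the lowest of the 9 by group means though above *Rad21l* in Ctrl 1 (ENSMUSG00000037286; chromosome 9, 100597798 to 100959375, plus strand), had values of 11.3, 9.10 and 10.5 FPKM for Ctrl libraries 1, 2 and 3, against 12.2, 10.3 and 14.3 for cKO libraries 1, 2 and 3. Its cKO 1 and cKO 3 libraries again lay above every Ctrl library, and cKO 2 did not (log2 fold change 0.22, standard error 0.15).

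With all 6 libraries, 0 of the 9 genes passed the unadjusted limit of 0.05 in limma, at which 4.43% of all genes tested were called. The calls numbered 761 of 17180 genes (460 higher and 301 lower in cKO), and 0 at an adjusted p below 0.05, while limma voom on the reads recovered from the FPKM also called 0 of the 9 at the unadjusted limit (349 higher and 345 lower over all genes). The median log2 fold change was 0.60 over the 4 meiosis-specific genes and -0.16 over the 5 general ones, compared with -0.0091 over all genes tested. Leaving out single libraries, the median of the meiosis-specific genes ran from 0.20 (without Ctrl 1) to 1.05 (without cKO 2), and that of the general genes from -0.28 (without Ctrl 3) to 0.00052 (without Ctrl 1). The log2 fold change of *Stag3* ran from 0.10 to 0.97 and that of *Smc1b* from 0.22 to 1.12, both lowest without Ctrl 1. The standard error was between 0.51 and 0.59 for each meiosis-specific gene and at most 0.20 for each general one.

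The number of cohesin genes past the unadjusted limit changed with the library left out. Without cKO 2, 2 genes passed, *Rad21l* (log2 fold change 1.91) and *Smc3* (0.47), but 14.5% of all genes tested passed as well. Without Ctrl 3, *Rad21l* passed (1.73; 6.87% of all genes). None of the 9 passed without Ctrl 1, Ctrl 2, cKO 1 or cKO 3, where 3.66%, 2.12%, 2.58% and 2.51% of all genes did, and the log2 fold change of *Rad21l* was down to 0.95. Without both Ctrl 1 and cKO 2, the libraries with the least germ-cell RNA in their groups, 3 genes passed, *Rad21l* (1.56), *Smc3* (0.58) and *Stag1* (0.40), beside 12.0% of all genes. This last setting was chosen after the values had been seen. With the mean level of the 8 germ-cell genes as a covariate, *Rad21l* alone passed (log2 fold change 0.90, standard error 0.24; adjusted p = 0.634 in limma), beside 6.26% of all genes. *Rad21l* was above 0 in all of these fits, whereas the sign of *Rec8* turned without Ctrl 1 or cKO 1 and with the covariate.

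**Figure D2:**
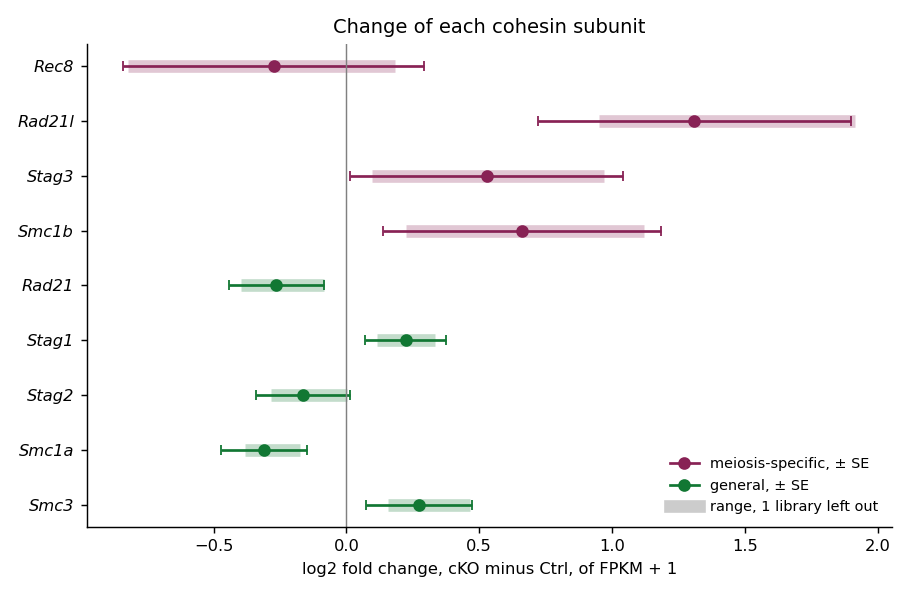
Log2 fold change of FPKM + 1, cKO minus Ctrl, of each cohesin subunit, with its standard error (bars, 3 libraries a group) and the range of values with each library left out in turn (shaded). *Rad21l* stayed between 0.95 and 1.91, and the range of *Rec8* ran across 0, from -0.82 to 0.18.

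*Stag3* and *Smc1b* had nearly the same profile across the 6 libraries. With each gene centred on its own mean of log2(FPKM + 1), their mean absolute difference was 0.072, and each was the second closest to the other among 17179 other genes tested. Within a library, *Stag3* was between 0.394 and 0.485 times the level of *Smc1b*, a 1.23-fold range, while the level of *Smc1b* itself spanned 4.74-fold. *Rad21l* lay farther off, at 0.32 from *Smc1b* and 0.39 from *Stag3*. *Rec8* was at 1.25 from *Stag3*, 1.27 from *Smc1b* and 1.42 from *Rad21l*, places 16978, 16991 and 17110 in order of closeness to *Rec8* among the same 17179 genes. These distances describe the same 6 libraries for every gene, and libraries that differ in depth or cell composition move many genes at once.

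Set beside lists of genes, *Stag3*, *Smc1b* and *Rad21l* were closest to 10 genes of the synaptonemal complex and chromosome axis, at distances of 0.086, 0.13 and 0.33 from the mean profile of that list. The germ-cell list came next, at 0.125, 0.188 and 0.471 from the same genes. *Rec8* was at 1.28 from the synaptonemal complex list and at 1.23 from the germ-cell list. Of the 6 lists compared it was closest to 9 genes of red blood cells, at 0.40. The centred level of *Rec8* was 1.05 in Ctrl 1 and 0.96 in cKO 2, where the mean of the red blood cell list was 1.15 and 0.33, and it was -0.89 in cKO 1, where that of the list was -1.04. In cKO 3 they differed in sign, at -0.48 for *Rec8* and 0.37 for the list. Haemoglobin genes took between 0.129% and 1.69% of the reads on genes, and the part of blood in the level of *Rec8* was not tested. *Rad21* and *Stag2* were closest to 10 genes of proliferating cells, at 0.094 and 0.13, and that list, like both genes, was highest in Ctrl 1 (0.58). *Stag1*, *Smc1a* and *Smc3* were closest to 6 stromal genes, at 0.16, 0.15 and 0.24. The mean of the stromal list was nearly flat, from -0.099 to 0.072, so any gene that varies little lies close to it. The part of cell composition in these genes was not tested.

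**Figure D3:**
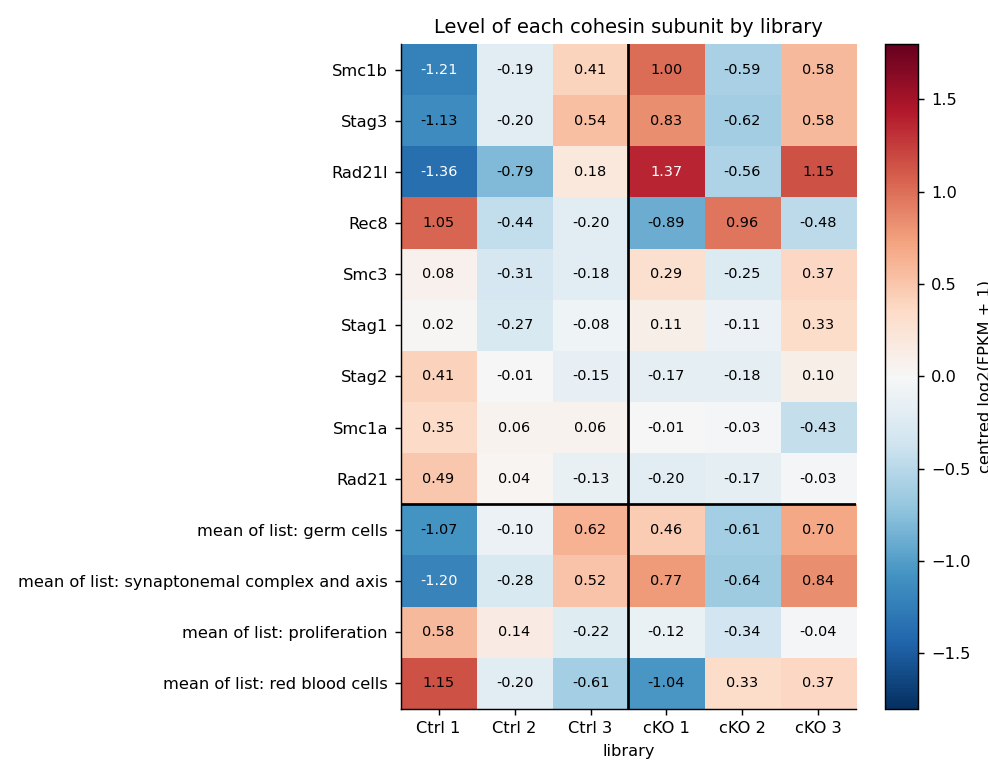
Centred log2(FPKM + 1) of the 9 cohesin genes (rows above the line) and the mean of 4 gene lists (rows below it) in each library, where 0 is the mean of a row's 6 libraries. *Smc1b* and *Stag3* follow the germ-cell and axis lists closely, and *Rec8* is high (1.05 and 0.96) where they are low.

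The genes with profiles most like those of the meiosis-specific subunits were looked up among all genes tested. Those of *Rad21l* included *Atf7ip2* (distance 0.14) and *Pramel1* (0.14), a member of a multigene family whose reads the counting could split. Those of *Stag3* were the lincRNA gene *Gm35188* (0.048), *Smc1b* and *BC051142* (0.078). *Gm35188* was at only 0.125 to 2.90 FPKM, where adding 1 before the log narrows the spread between libraries. Those of *Smc1b* were *Il18*, which encodes a cytokine (0.063), *Stag3* and the pseudogene *Gm31532* (0.074). For *Rec8* they were the pseudogene *Gm47385* (0.18), *Lor*, which encodes loricrin of the skin barrier (0.19), and the snRNA gene *Gm26180* (0.21), all with a mean below 5 FPKM.

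Since *Rad21l* and its partners *Stag3* and *Smc1b* differed between libraries in like manner, their ratios were taken within each library, after the values had been seen. *Rad21l* was at 0.487, 0.387 and 0.467 times the level of *Stag3* for Ctrl libraries 1, 2 and 3, against 0.881, 0.621 and 0.899 times for cKO libraries 1, 2 and 3. Every cKO library lay above every Ctrl library, cKO 2 included, and the mean ratio was 0.447 ± 0.053 (SD, n = 3) in Ctrl and 0.801 ± 0.155 in cKO, 1.79-fold higher (exact permutation test, two-sided, p = 0.1, the lowest that this design can give). Of all genes tested, 3.45% had a ratio to *Stag3* that did not overlap between groups. Over *Smc1b*, the ratio of *Rad21l* was between 0.169 and 0.226 in Ctrl and between 0.265 and 0.399 in cKO libraries, also with no overlap, as for 4.21% of all genes tested.

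The ratio of *Rad21l* to *Ddx4*, which encodes a helicase made throughout the germline, was 0.618, 0.397 and 0.521 for Ctrl libraries 1, 2 and 3, against 1.15, 0.735 and 0.919 for cKO libraries 1, 2 and 3, and that to the piRNA-pathway gene *Mael* did not overlap between groups either (2.05-fold). Over all genes tested, 3.0% had a ratio to *Ddx4* without overlap and 2.7% a ratio to *Mael*. *Stag3* and *Smc1b* had overlapping ratios to both *Ddx4* and *Mael*, with means 1.03-fold to 1.24-fold those of Ctrl. Ratios to *Stag3* and to *Smc1b* are not independent of each other, as the profiles of these genes were nearly the same. Of the 6 ratios between meiosis-specific subunits, 2 had no overlap, those of *Rad21l* to *Stag3* and *Smc1b*. Such a difference was not particular to *Rad21l*: over *Stag3*, the synaptonemal complex and axis genes *Syce1*, *Tex12* and *Hormad2* and the germ-cell genes *Dazl* and *Rnf17* were also higher in every cKO library, and *Syce3* and *Tdrd1* were lower in every one.

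**Figure D4:**
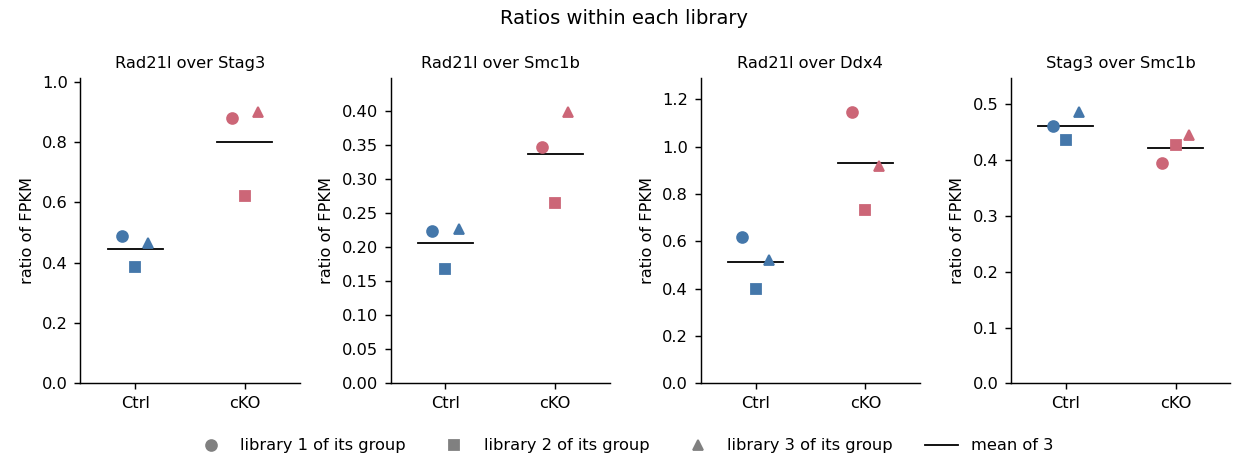
Ratios of FPKM within each library, on axes from 0, for 3 Ctrl (blue) and 3 cKO (red) libraries, with a line at the mean of each group. The ratios of *Rad21l* to *Stag3*, *Smc1b* and *Ddx4* do not overlap between groups, and that of *Stag3* to *Smc1b* stays between 0.394 and 0.485.

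The balance of each meiosis-specific subunit against its general counterparts was then compared as a share of the family's summed FPKM. This is a share of RNA in the whole ovary, in which the general subunits can come from somatic cells and germ cells alike. *Rad21* made up 57.7%, 66.1% and 52.8% of kleisin FPKM for Ctrl libraries 1, 2 and 3, against 40.7%, 44.7% and 45.2% for cKO libraries 1, 2 and 3. It was lower in every cKO library, by 15.3 percentage points in the mean (58.9% ± 6.72 in Ctrl and 43.5% ± 2.50 in cKO, SD, n = 3; exact permutation test, two-sided, p = 0.1, or 0.5 adjusted over 5 shares). Of the 5 shares compared, 1 had no overlap between groups, that of *Rad21*, and no such measure was taken over all genes. In cKO 1 and cKO 3 *Rad21l* held 49.1% and 41.1%, and in cKO 2 *Rec8* held 42.1%, so that the more abundant meiosis-specific kleisin was not the same one in each cKO library.

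*Rad21l* held 5.81%, 14.2% and 26.0% of kleisin FPKM in Ctrl 1, 2 and 3 and 13.2% in cKO 2. *Rec8* held between 19.7% and 36.5% in Ctrl and 10.3% and 13.8% in cKO 1 and cKO 3, and the groups overlapped for both genes. The kleisin sum moved only from 88.2 to 139 FPKM over the 6 libraries, a 1.57-fold range, while the ratio of *Rad21l* to *Rec8* ran from 0.159 in Ctrl 1 to 4.77 in cKO 1, a 30.0-fold range.

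*Smc1b* held 49.7%, 71.4% and 79.2% of SMC1 FPKM for Ctrl libraries 1, 2 and 3, against 85.8%, 66.8% and 85.9% for cKO libraries 1, 2 and 3, and the groups overlapped (exact permutation test, two-sided, p = 0.3). *Stag3* held 28.5%, 50.8% and 64.1% of STAG FPKM for Ctrl libraries 1, 2 and 3, against 67.8%, 44.3% and 59.4% for their cKO counterparts (exact permutation test, two-sided, p = 0.6). Both shares were lowest in Ctrl 1 and, within cKO, in cKO 2, as the germ-cell genes were.

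**Figure D5:**
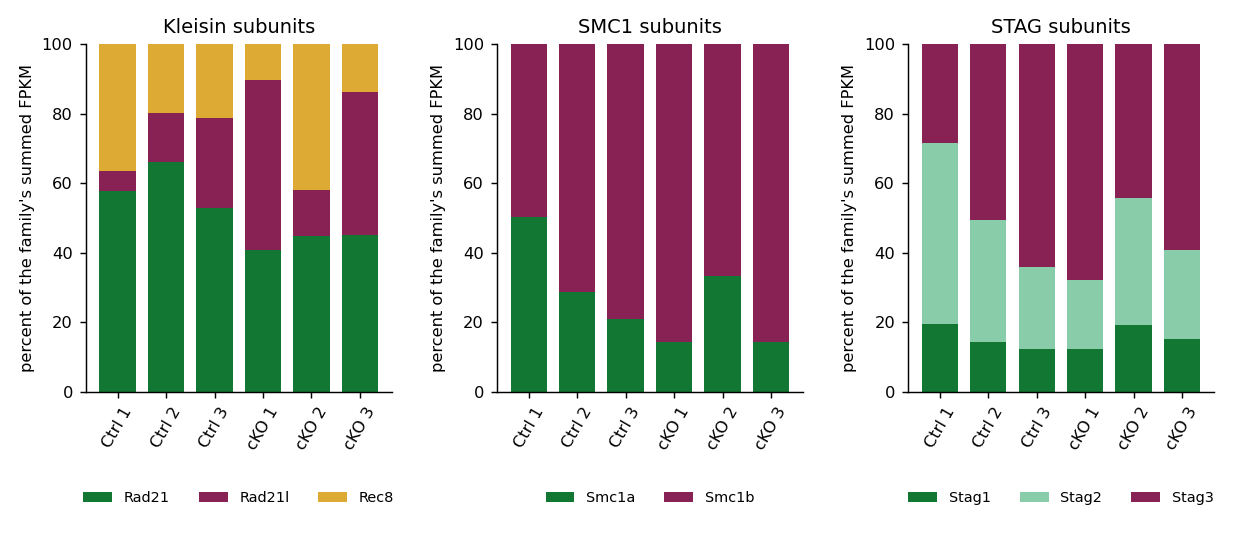
Share of each subunit in the summed FPKM of the kleisin, SMC1 and STAG families, in percent, with 1 bar for each library. *Rad21* held 52.8% to 66.1% of the kleisin sum in Ctrl and 40.7% to 45.2% in cKO libraries, and the rest was mainly *Rad21l* in cKO 1 and cKO 3 and mainly *Rec8* in cKO 2.

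In order of mean level in Ctrl ovaries, the genes were *Smc1b*, *Rad21*, *Smc3*, *Stag3*, *Smc1a*, *Rec8*, *Stag2*, *Rad21l* and *Stag1*. Among neighbours in this order, only *Rad21* and *Smc3* had ranges that did not overlap. In cKO ovaries *Rad21l* stood higher by mean level, between *Smc3* and *Smc1a*, and the neighbours with separate ranges were *Smc1b* and *Rad21*, and *Stag2* and *Stag1*. Within its own libraries *Smc1b* was higher than *Rad21* in 2 of 3 Ctrl and 3 of 3 cKO libraries.

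The genes that act on cohesin were examined as lists. Of 10 genes that load, release or acetylate cohesin, 0 passed the unadjusted limit in either direction, beside 4.43% of all genes, with a median log2 fold change of 0.12. *Esco2*, an acetyltransferase that acts on SMC3, had values of 11.4, 11.7 and 16.7 FPKM for Ctrl libraries 1, 2 and 3, against 39.8, 12.7 and 48.1 for cKO libraries 1, 2 and 3. Its libraries were ordered much as those of *Rad21l*, with cKO 2 within the Ctrl range (log2 fold change 1.10, standard error 0.47; adjusted p = 0.978 in limma). *Esco2* passed the unadjusted limit under voom (1.12) and with the germ-cell covariate (0.83), where 4.04% and 6.26% of all genes did. With the replicate block, whose numbers did not pair the libraries, *Esco1* and *Esco2* passed, beside 3.96% of all genes. Without cKO 2, 5 genes of the list passed, all higher (*Esco2* at 1.67, *Esco1*, *Nipbl*, *Mau2* and *Pds5b*), beside 14.5% of all genes. *Cdca5* passed as lower without Ctrl 3 or cKO 3, where 6.87% and 2.51% of all genes passed. The other values were smaller: 0.51 for its relative *Esco1*, 0.27 for the loader *Nipbl*, 0.30 for its partner *Mau2*, 0.02 for the release factor *Wapl* and -0.53 for *Cdca5*, which encodes sororin, a protector of cohesion in dividing cells.

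Of 14 genes that protect or cleave cohesin, 0 passed in either direction, beside 4.43% of all genes, with a median of -0.13. *Bub1*, a kinase of the kinetochore, had a log2 fold change of 0.77, with 63.9 and 68.4 FPKM in cKO 1 and cKO 3 and 21.2 to 33.5 in the other libraries. *Aurkb* (-0.65), *Plk1* (-0.58) and the shugoshin gene *Sgo1* (-0.45) were highest in Ctrl 1, like *Rad21*. Without Ctrl 3 and under voom, *Aurkb* and *Plk1* passed as lower, beside 6.87% and 4.04% of all genes. Without cKO 2 *Bub1* passed as higher (14.5% of all genes), and with the germ-cell covariate *Plk1* and *Meikin* passed as lower (6.26%). *Meikin*, which encodes the kinetochore partner of REC8 cohesin in meiosis I, was at 0.0438 to 2.25 FPKM, with as few as 1 read in a library. Of 15 genes of condensin and of the SMC5/6 complex, the other SMC rings, 14 were tested and 1 passed, beside 4.43% of all genes. This was *Ncapg*, a condensin I subunit, which fell by 0.63 on the log2 scale (standard error 0.23; adjusted p = 0.978 in limma), a call lost without any 1 of the Ctrl libraries. Without cKO 2, 5 of the 14 passed, 2 higher and 3 lower, beside 14.5% of all genes.

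With all 6 libraries, 4.43% of all genes tested passed the unadjusted limit, 460 higher and 301 lower, the share beside which the next counts stand. Of the 10 synaptonemal complex and axis genes, 3 were higher past this limit (*Tex12*, *Syce2* and *Syce1*) and 0 lower, with a median log2 fold change of 0.69, close to that of the meiosis-specific cohesin genes. Like that median, theirs was lowest without Ctrl 1 (0.20) and highest without cKO 2 (1.12). Of the 8 germ-cell genes, 1 was higher, *Dazl* (1.60), which encodes a translation regulator of germ cells (adjusted p = 0.978 in limma), and 0 were lower, with a median of 0.27 that was -0.21 without Ctrl 1. The calls of *Dazl*, *Tex12*, *Syce2* and *Syce1* were each lost without Ctrl 1, Ctrl 2, cKO 1 or cKO 3, and held without Ctrl 3 or cKO 2. The red blood cell list had 1 higher gene of 9, *Hbb-y*, and a median of -0.71, which ran from -1.21 (without Ctrl 3) to 0.083 (without cKO 1). With all 6 libraries, none of the 10 pregranulosa, 6 stromal, 6 endothelial and 10 proliferation genes passed in either direction, nor did those tested from the immune (5), mesonephros (4), adrenal (3) and Sertoli (3) lists, and the median of the proliferation list was -0.38. Without Ctrl 3, 6 of the 10 proliferation genes passed as lower, beside 6.87% of all genes in either direction. Without cKO 2 both *Csf1r* and *Tyrobp* of the immune list passed as lower, beside 14.5% of all genes.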

How the data were processed

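RNA of 3 Ctrl and 3 cKO ovary samples was sequenced, and the sample labels gave the groups and the numbers of the replicates. The authors aligned reads to GRCm38 (mm10) with HISAT2 2.0.5, used featureCounts to count those on each gene, and deposited FPKM. The sources used here do not state the annotation release or any use of strand in counting. Recovered from gene lengths, 100% of the deposited FPKM values were whole reads to within 0.05, which gave the depth per library, and no 2 libraries were identical. The library size implied by the FPKM was 0.965 (Ctrl 1) to 1.04 (Ctrl 3) times the recovered reads on genes. The divisor was therefore not that total, and how it was set is not stated.

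Genes whose FPKM averaged at least 0.5 in the 6 libraries were tested on log2(FPKM + 1) with limma 3.58.1 in R 4.3.3, two-sided, with an intensity trend and genotype as the only term. This scale understates the change of low genes. The limit for calls was an unadjusted p of 0.05, as in the study, and p was adjusted over all genes tested by the Benjamini-Hochberg method. Shares and ratios were compared with exact permutation tests. Lists covered genes of loading and release, protection and cleavage, condensin and SMC5/6, the synaptonemal complex and axis, germ cells, and the cell types named in the report. The members and lists were chosen with earlier results of these data known. Named genes were the members, *Srsf1*, genes of these lists and the 3 genes most like each meiosis-specific member in profile, by mean absolute difference of centred values. Of these, 1 gene is not reported here.

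Alternatives were pseudocounts of 0.1 and 0.5, no minimum or one of 1, median-ratio scaling, voom on recovered reads, no intensity trend, a replicate block, a germ-cell covariate and each library left out. The fit without Ctrl 1 and cKO 2 and the ratios were added after the data were seen. The fit was tested on simulated data. Same-numbered Ctrl and cKO libraries deviated from their group means with correlations of -0.39, -0.03 and 0.12, so the numbers did not pair them. Promoters came from RefSeq (GRCm38.p6). Tables and figures were made in Python 3.11.15 (scipy 1.17.1, pandas 2.3.3, numpy 2.4.6, matplotlib 3.10.9).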

Additional observations from a re-analysis of the deposited data

How the results depend on the processing

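The 9 log2 fold changes kept their sign and their side of the limit at other pseudocounts, minimums and scaling, under voom and without an intensity trend. With the replicate block, whose numbers did not pair the libraries, 1 member was called (*Rad21l*, 1.31), beside 3.96% of all genes tested, and with the germ-cell covariate 1 was called as well. With each library left out the count was 0 to 2, and without Ctrl 1 and cKO 2 it was 3. The genes called numbered 761 of 17180 tested (4.43%), and 1331 of 33797 tested with no minimum (3.94%). Calls numbered 365 to 2500 with each library left out (2.12% to 14.5% of genes tested) and 2082 without Ctrl 1 and cKO 2 (12.0%). *Rec8* turned to 0.087 with the covariate, and ran from -0.82 to 0.18 with each library left out. *Stag2* ran from -0.28 to 0.00052, and was at 0.048 without Ctrl 1 and cKO 2. The share differences moved by less than the spread between replicates, but this did not keep their sign for every gene. With each library left out, that of *Stag3* ran from -0.252 to 17.5 percentage points and that of *Rec8* from -13.8 to 2.11. With 3 libraries a group, no exact test could pass 0.05, and differences of the meiosis-specific genes near their standard errors were not detectable. The cause of these shifts was not tested.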
